A study of Mus musculus with 59 samples.

Results

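Hippocampus and cortex of adult mice that had been exposed only to vehicle before birth were compared gene by gene. The comparison used every array that the labels give as adult, 12 to 13 weeks old, vehicle (MC) and without a running wheel: 3 arrays of hippocampus and 3 of cortex, 6 of the 59 arrays in the series. Further vehicle hippocampus arrays are labelled P84 (postnatal day 84). No cortex arrays carry that label, and these were not used in the comparison. The mice were male C57BL/6, and their mothers had been given 0.5% methylcellulose by mouth on embryonic days E12.5, E13.5 and E14.5. The labels describe the adults as mice without a behavioural test and call the arrays biological replicates, but they name no litter or animal. The p-values therefore measure the spread between arrays only. That spread was estimated within groups over all 24 adult arrays, which include the treated and running groups described below. The small number of arrays per group limits the precision of every value.

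The series examined offspring of dams treated with valproic acid (VPA), valpromide or methylcellulose, using Affymetrix Mouse Genome 430 2.0 arrays. For comparison, 3 further adult conditions of the same age were used, each with 3 hippocampus and 3 cortex arrays: running vehicle offspring (MC with a running wheel from weaning), VPA offspring (300 mg/kg VPA to the dam on the same embryonic days) and running VPA offspring. Vehicle embryos at E18.5, with 3 arrays of hippocampus and 3 labelled forebrain, gave the same contrast before birth, although forebrain is a wider dissection than adult cortex. These were bulk tissue samples, so fewer cells of a type and less RNA per cell cannot be told apart.

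The hippocampus is built of granule neurons in the dentate gyrus and pyramidal neurons in fields CA3, CA2 and CA1, linked in a largely one-way circuit that serves memory and spatial navigation. The neocortex is built of layers: upper-layer neurons mostly connect cortical areas, and deep-layer neurons project to thalamus, striatum and brain stem. Both regions hold glutamatergic neurons born in the dorsal telencephalon and inhibitory interneurons that migrate in from below, whereas the striatum beneath the cortex consists mainly of inhibitory projection neurons with dopamine receptors.

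Values are the signal of each array after scaling to a trimmed mean of 500, with values under 32 set to 32 before taking logarithms. A log2 difference is hippocampus minus cortex, tested with limma over all genes at a Benjamini-Hochberg adjusted p under 0.05. Of 13288 genes tested, 2583 passed (19.4%): 1230 were higher in hippocampus (9.26%) and 1353 were lower (10.2%). This fit took its estimate of spread from all 24 adult arrays. Fitted on the 6 vehicle arrays alone, 1795 genes passed, 840 higher and 955 lower. Of the 2583 genes, 394 differed at least 2-fold (2.97% of all tested), 157 of them higher (1.18%) and 237 lower (1.78%). The groups did not overlap for 4037 genes (30.4%), whether or not these passed the test. With the signals left as deposited, without scaling between arrays, 466 genes were higher and 921 lower, so that 33.6% of calls were higher against 47.6% after scaling. The median difference of all genes was then -0.07.

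The arrays were of similar quality. Before scaling, trimmed mean signals were 306 to 345 in hippocampus and 309 to 398 in cortex. Correlations of log2 signal were 0.980 to 0.987 among hippocampus arrays, 0.978 to 0.989 among cortex arrays and 0.966 to 0.978 between the regions. The ratio of 3′ to 5′ Actb probe sets, a sign of RNA degradation, was 1.23 to 1.31 in hippocampus and 1.23 to 1.32 in cortex. No 2 of the 24 adult arrays held identical values.

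The genes highest in hippocampus were led by markers of dentate granule neurons. The 15 largest differences in each direction were taken from called genes whose groups do not overlap, so the separation of their arrays was part of the choice. C1ql2, a secreted C1q-like protein that organises kainate receptors at mossy fibre synapses, had scaled signals of 1454, 1403 and 1529 in hippocampus, against 115, 72.6 and 20.1 in cortex. Dsp encodes desmoplakin, a protein of desmosomal junctions, and had 1216, 1137 and 1085 in hippocampus, against 54.6, 76.3 and 87.6 in cortex. Lct, lactase, had 966, 765 and 963 in hippocampus, against 61.3, 58.4 and 84 in cortex. Every hippocampus array of these 3 genes was above every cortex array, and the lowest C1ql2 value in cortex lay under the floor. The log2 differences were 4.50 ± 0.39 (SE) for C1ql2, 4.00 ± 0.19 for Dsp and 3.74 ± 0.20 for Lct, with adjusted p of 7.49e-09, 2.92e-13 and 3.31e-12.

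Fibcd1, a marker of CA1 pyramidal neurons that encodes a receptor for acetylated sugars, had 1483, 1153 and 1222 in hippocampus, against 148, 108 and 116 in cortex (log2 difference 3.38, adjusted p = 1.24e-14). Cabp7, a calcium sensor of the Golgi and related membranes, was among the brighter genes, at 5831, 5078 and 5395 in hippocampus and 670.0, 615 and 536 in cortex. Its log2 difference of 3.17 ± 0.08 had the smallest adjusted p of all genes tested, 2.26e-17. Shisa6, an auxiliary subunit of AMPA-type glutamate receptors, differed by 3.35 and Npy2r, a receptor of neuropeptide Y, by 2.78, with no overlap between the regions for either.

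The other 8 of the 15 genes highest in hippocampus had log2 differences between 2.44 and 3.45. Pkp2, plakophilin 2, is a second desmosomal protein and differed by 2.82. Lhx9 (2.49), a LIM homeobox transcription factor, and St18 (2.60), a zinc finger transcription factor, were the transcription factors in this group. Serpina3n (3.01) and Spink8 (2.63) encode protease inhibitors, Lefty1 (2.44) is a secreted antagonist of Nodal, and Thsd4 (3.45) is a matrix protein. Mndal (2.70) belongs to a family of interferon-inducible nuclear proteins. A cortex array lay under the floor for 2 of the 15 genes, C1ql2 and Thsd4.

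**Figure D1:**
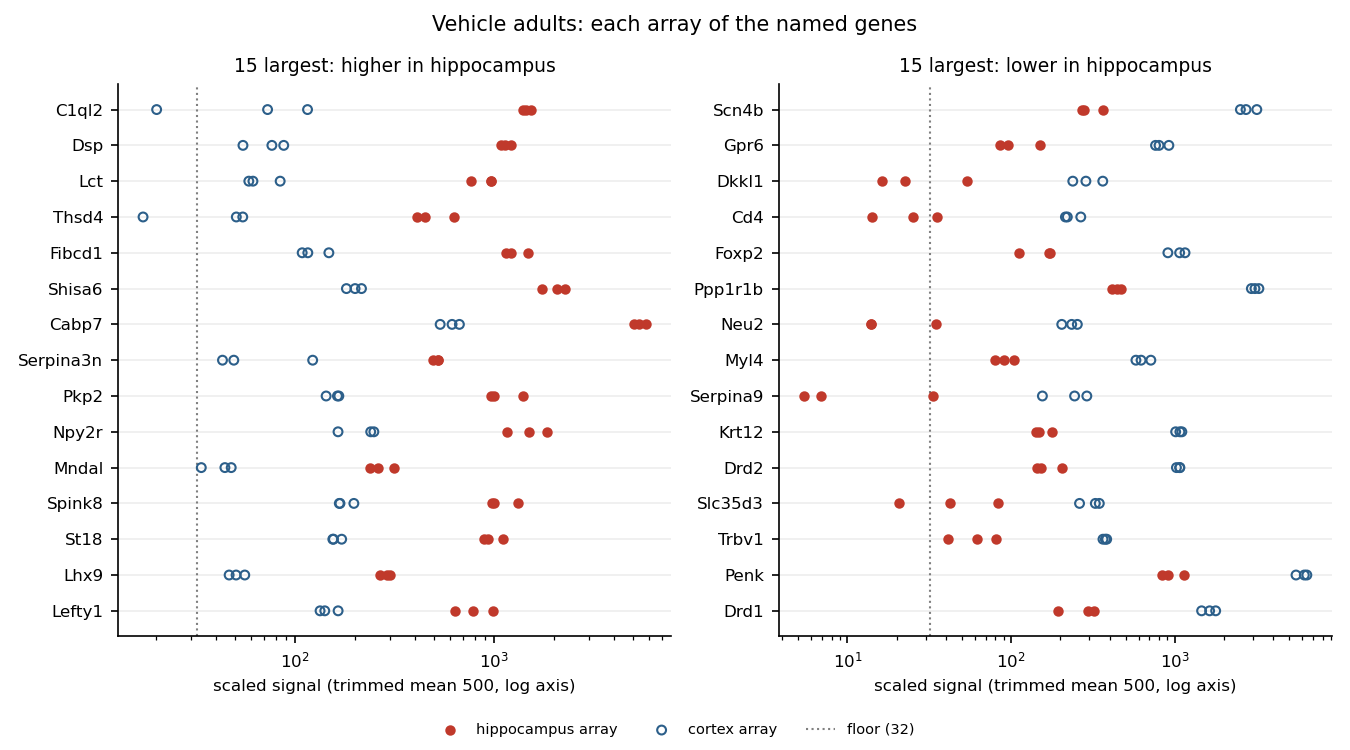
Scaled signal (log axis) of the 15 genes with the largest differences in each direction, 1 point per array, hippocampus filled and cortex open, with the floor of 32 dotted. Only genes whose hippocampus and cortex arrays do not overlap were eligible, so the plot shows the size and spread of the signals.

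Genes lowest in hippocampus relative to cortex included the dopamine system of striatal projection neurons. Scn4b, a sodium channel subunit that shapes fast repetitive firing, had 269, 364 and 279 in hippocampus, against 3168, 2515 and 2722 in cortex, a log2 difference of -3.21 ± 0.14. Ppp1r1b encodes DARPP-32, a phosphatase inhibitor controlled by dopamine, and had 471, 442 and 414 in hippocampus, against 3262, 2935 and 3087 in cortex (log2 difference -2.81, adjusted p = 1.95e-15). The dopamine receptor Drd2 had 143, 203 and 152 in hippocampus, against 1023, 1073 and 1070.2 in cortex. In each of these genes every cortex array was above every hippocampus array.

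Penk, the precursor of the enkephalin peptides, had 1140.3, 837 and 902 in hippocampus, against 6404, 6180.1 and 5499 in cortex, and Drd1, the other main dopamine receptor, had 192, 293 and 322 in hippocampus, against 1776, 1631 and 1457 in cortex. The log2 differences were -2.66 for Penk and -2.62 for Drd1. Gpr6, an orphan receptor of striatal neurons, differed by -2.94, and Foxp2, a transcription factor of deep cortical layers and striatum, by -2.81. Of the 15 genes lowest in hippocampus, 5 belong to the list of striatal projection neuron genes.

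The remaining 8 genes with the lowest values in hippocampus had log2 differences between -2.93 and -2.67. They were Dkkl1, a secreted relative of the Wnt antagonist Dickkopf, the T-cell co-receptor Cd4, the sialidase Neu2, the myosin light chain Myl4, the serpin Serpina9, the keratin Krt12, the transporter-family gene Slc35d3 and the T-cell receptor segment Trbv1. Cd4 had 14, 35.2 and 25.3 in hippocampus, against 215, 220.4 and 266 in cortex, and Trbv1 had 40.9, 81.0 and 62.0 in hippocampus, against 364, 383 and 376 in cortex. In 5 of the 15 genes, Dkkl1, Cd4, Neu2, Serpina9 and Slc35d3, at least 1 hippocampus array lay under the floor.

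Promoter sequences of RefSeq genes (build GRCm38.p6, from 250 bases before to 50 bases after the annotated start) are shown for 2 genes that were high in hippocampus and 2 that were high in cortex, chosen to place the motif counts on actual sequence. Capitals mark the E-box CAGATG, a site type bound by NeuroD-family factors, in Prox1 and the cyclic AMP response element TGACGTCA, bound by CREB, in Gpr6 and Dusp1. C1ql2 held neither motif. C1ql2 lies at chr1:120340332-120340631 (plus strand), Prox1 at chr1:190170778-190171077 (minus strand), Gpr6 at chr10:41072241-41072540 (minus strand) and Dusp1 at chr17:26508423-26508722 (minus strand). Prox1, the homeobox factor that specifies granule neurons, has another annotated start whose window held neither motif.
C1ql2: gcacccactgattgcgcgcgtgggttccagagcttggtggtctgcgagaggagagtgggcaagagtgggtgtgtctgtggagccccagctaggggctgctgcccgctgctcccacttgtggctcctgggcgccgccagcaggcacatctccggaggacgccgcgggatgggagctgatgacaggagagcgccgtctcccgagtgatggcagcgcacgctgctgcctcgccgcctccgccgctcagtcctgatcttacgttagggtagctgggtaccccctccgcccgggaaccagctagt
Prox1: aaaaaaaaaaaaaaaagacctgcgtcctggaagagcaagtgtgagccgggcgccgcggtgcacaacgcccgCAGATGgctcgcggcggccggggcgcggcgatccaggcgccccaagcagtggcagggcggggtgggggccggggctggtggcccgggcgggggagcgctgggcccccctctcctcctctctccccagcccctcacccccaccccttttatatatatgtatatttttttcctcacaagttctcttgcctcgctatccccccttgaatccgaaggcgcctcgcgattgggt
Gpr6: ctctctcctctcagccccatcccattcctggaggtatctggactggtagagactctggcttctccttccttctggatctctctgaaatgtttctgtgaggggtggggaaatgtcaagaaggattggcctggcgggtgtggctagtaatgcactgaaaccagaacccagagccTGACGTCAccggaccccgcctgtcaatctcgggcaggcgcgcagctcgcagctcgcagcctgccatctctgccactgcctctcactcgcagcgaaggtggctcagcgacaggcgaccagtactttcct
Dusp1: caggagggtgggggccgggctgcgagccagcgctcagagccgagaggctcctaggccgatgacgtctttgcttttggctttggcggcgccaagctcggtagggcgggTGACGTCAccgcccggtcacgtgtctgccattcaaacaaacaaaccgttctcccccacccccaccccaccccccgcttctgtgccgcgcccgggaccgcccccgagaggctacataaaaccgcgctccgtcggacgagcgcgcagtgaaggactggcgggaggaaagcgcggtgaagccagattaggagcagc

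Both motifs were searched on both strands. Over 32817 promoter windows, 1.79% held the cyclic AMP response element and 17.2% the E-box. Among genes of the 15 highest in hippocampus, 10 had entries with 12 windows, of which 0 held the response element and 3 the E-box. Among the 15 lowest, 9 had entries with 12 windows, of which 1 held the response element and 1 the E-box. Of 21 windows of 16 immediate early genes, 2 held the response element (9.52%) and 0 the E-box. These counts describe letters in short windows and say nothing of binding.

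Markers of all 3 hippocampal neuron types were mostly higher in hippocampus, with exceptions in each. The vehicle adult counts of this and the following lists stand against 9.26% higher and 10.2% lower over all genes. Of 19 dentate granule neuron genes tested, 10 were higher and 3 lower in hippocampus, with a median log2 difference of 0.59 against 0.00 over all genes. Prox1 had 532, 427 and 479.5 in hippocampus, against 102, 95.2 and 102 in cortex, a log2 difference of 2.26 (adjusted p = 1.54e-10), and the guidance molecule Sema5a differed by 1.56. The 3 lower genes were Pdyn (-1.30), the precursor of the dynorphin peptides, Pdzd2 (-0.93) and Marcks (-0.59), a substrate of protein kinase C. Calb1, calbindin, had 4935, 3938 and 4459 in hippocampus and 4976, 5090.2 and 4604 in cortex and did not pass (log2 difference -0.14, adjusted p = 0.209).

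Of 11 CA1 pyramidal neuron genes tested, 7 were higher and 1 lower, with a median of 0.55. After Fibcd1 the largest differences were Gpr161 (2.30), a receptor that restrains Sonic hedgehog signalling in cilia, and the POU transcription factor Pou3f1 (1.37). The lower gene, Zdhhc2, differed by -0.21, and this count was 0 to 1 under other processing choices. Wfs1, a widely used CA1 marker that encodes a membrane protein of the endoplasmic reticulum, had 3045, 3692 and 3584 in hippocampus and 3777, 3089 and 3266 in cortex, overlapping ranges that gave a log2 difference of 0.03 (adjusted p = 0.902).

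Of 17 CA3 and CA2 genes tested, 12 were higher and 4 lower, with a median of 0.61. Their summed signal, however, was 25451, 23657 and 24186 in hippocampus and 24009, 25027 and 25171.5 in cortex, overlapping. The sums of the dentate and CA1 lists were higher in every hippocampus array than in any cortex array. Homer3, a postsynaptic scaffold, had 582, 617 and 566 in hippocampus, against 187, 156 and 181 in cortex (log2 difference 1.75). Iyd (2.07), an iodotyrosine deiodinase, and Amigo2 (1.2), an adhesion molecule of CA2, were also higher. Sostdc1, a secreted Wnt and Bmp antagonist, had 152, 156 and 171 in hippocampus, and all 3 cortex arrays lay under the floor, so that it was at least 4.98-fold higher in hippocampus. Sostdc1 passed the signal filter only through its hippocampus arrays, so it could only be called higher. It is also expressed by choroid plexus. The 4 lower genes were Coch (-1.92), Pcp4 (-1.25), the tyrosine phosphatase Ptpn5 (-0.88) and Cacng5 (-0.32). Pcp4 encodes a calmodulin-binding peptide and had 3664, 4170.4 and 4086 in hippocampus, against 9212, 9082 and 9981 in cortex. Deep cortical layers also express Pcp4, but the part of any cell type in this difference was not tested.

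Transcription factors that pattern the hippocampus were mostly higher there or did not pass. Of 21 tested, 12 were higher and 2 lower, with a median of 0.41. Zbtb20, a zinc finger factor required for hippocampal identity, had 3399.7, 3372 and 3724 in hippocampus, against 1093, 915 and 888 in cortex (log2 difference 1.86, adjusted p = 2.81e-13). Neurod6 (1.52), Neurod1 (0.70) and Neurod2 (0.62), basic helix-loop-helix factors of excitatory neurons, and Nfib (0.75), Nfia (0.46) and Nfix (0.31), nuclear factor I proteins, were all higher. The 2 lower were Emx1 (-0.73) and Lmo4 (-0.34), whereas the related Emx2 was higher (0.41).

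Cortical layer genes were mostly lower in hippocampus. Of 16 upper-layer genes tested, 12 were lower and 2 higher, with a median of -0.94. Lamp5, a lysosome-associated protein, had 1604, 1677 and 1599.6 in hippocampus, against 4661, 4859 and 4887 in cortex (log2 difference -1.56, adjusted p = 3.68e-16). Mef2c, a transcription factor of synapse development, had 2542, 3002 and 2901 in hippocampus, against 9017, 8164 and 8521 in cortex (-1.61). The homeobox factor Cux2 (-1.63), the nuclear receptor Rorb (-1.14) and the Wnt co-agonist Rspo1 (-2.00) were also lower. The 2 higher genes were Scnn1a (0.38) and Lhx2 (0.17), and the count of higher genes was 0 to 2 under other processing choices.

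Deep-layer genes were divided: of 21 tested, 9 were lower and 6 higher, with a median of -0.55. After Foxp2, the lower genes were led by Syt6 (-1.47), Sulf1 (-1.32), Rprm (-1.28) and Tbr1 (-1.19), a T-box factor of layer 6. Tbr1 had 461, 1008 and 933 in hippocampus, against 1612, 1899 and 1701 in cortex, and was lowest in the first hippocampus replicate. Crym, which binds thyroid hormone, went the other way, with 6485, 5588 and 6221 in hippocampus, against 2215, 2160.1 and 2023 in cortex (1.51), as did Fezf2 (1.07) and Bcl11b (0.56), transcription factors of subcortical projection neurons. Of 10 genes of subiculum and retrohippocampal cortex, 3 were higher, among them the repressor Bcl6 (1.09), and 3 lower. The lower genes included the contactin Cntn6 (-1.24) and, lowest, Drd1 (-2.62), which is also on the striatal list.

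**Figure D2:**
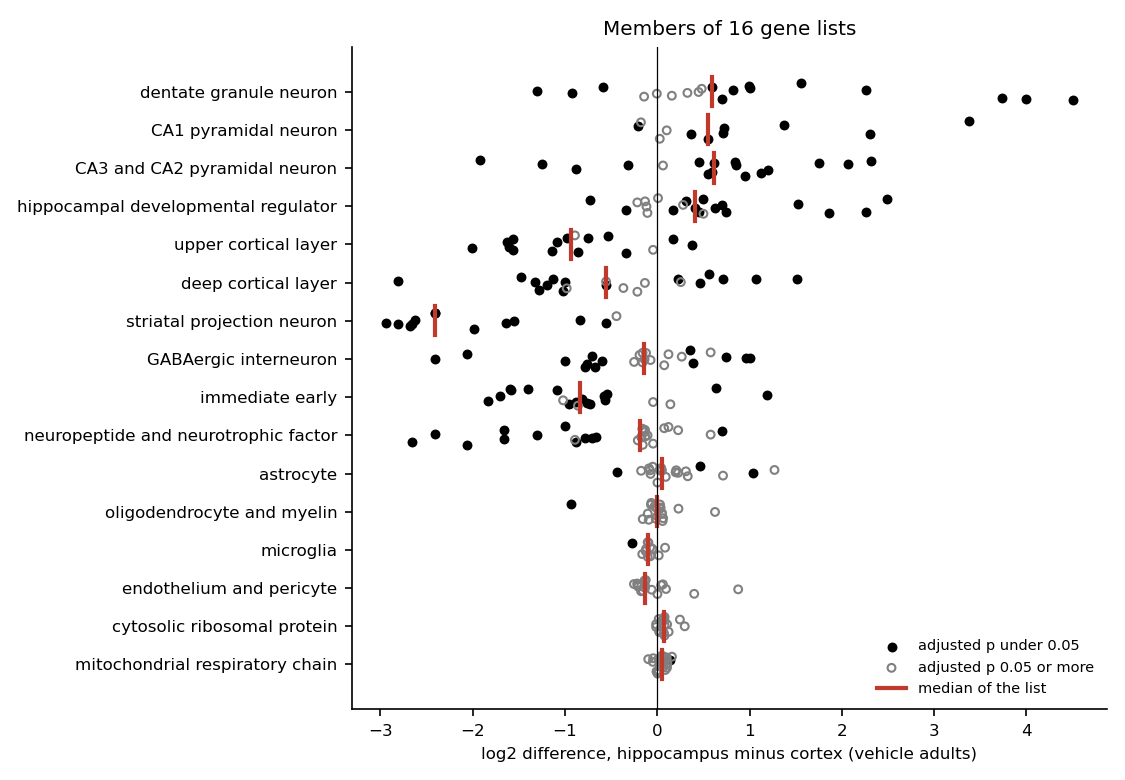
Log2 difference (hippocampus minus cortex) of every tested member of 16 gene lists, 1 point per gene, filled where the adjusted p was under 0.05, with the list median as a bar. Hippocampal lists lie mostly right of 0, upper-layer, striatal and immediate early lists mostly left, and glial and housekeeping lists cluster near 0.

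The striatal list stood lowest. Of 13 striatal projection neuron genes tested, 12 were lower in hippocampus and 0 higher, with a median of -2.41; besides those above they included Tac1 (-2.41), the precursor of substance P, the LIM factor Isl1, the phosphodiesterase Pde10a (-1.64) and Rgs9 (-1.55), a regulator of dopamine receptor signalling. Summed over the 13 genes, the signal was 7740, 7247 and 7116 in hippocampus, against 30487, 30682 and 24861 in cortex. Tac1 had 927, 964 and 896 in hippocampus, against 6314, 6062 and 3147 in cortex, with the third cortex replicate lowest in both Tac1 and the sum. Every hippocampus array of Isl1 lay under the floor, against 193, 185 and 139 in cortex, so that it was at least 5.32-fold lower in hippocampus. Isl1 passed the signal filter only through its cortex arrays, so it could only be called lower. The labels do not say whether the cortex samples held any striatum, and the part of this list in the other differences was not tested.

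Other neighbouring tissues moved less. Of 11 thalamic genes, 3 were higher and 5 lower in hippocampus, and their summed signal was 5692, 6523 and 5739 in hippocampus and 6344, 6304 and 6051 in cortex, overlapping. The choroid plexus list had 8 of 15 matched genes tested, with 3 higher and 0 lower, and summed to 2653, 3176 and 3630 in hippocampus, against 2154, 2219 and 2120 in cortex. The higher genes include Sostdc1, which is also on the CA3 and CA2 list and could only be called higher. Ttr, which carries thyroxine, had 277, 674 and 1071 in hippocampus and 312, 239 and 253 in cortex, a wide spread that did not pass (adjusted p = 0.509). Kl (1.58) and Trpm3 (0.66) were higher in hippocampus. In the list for meninges, Dcn, the matrix proteoglycan decorin, had 2955, 2953 and 3233 in hippocampus, against 851, 763 and 749 in cortex (1.95), and Lum was higher too, while the other 11 of 13 genes did not pass. For ependyma, 4 of 8 genes were higher in hippocampus, led by Tmem212 (1.01).

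Glial, vascular and housekeeping genes were much closer between the regions. Of 19 oligodendrocyte and myelin genes only Klk6 passed, lower by -0.93, and Mbp, myelin basic protein, had 14787, 16327 and 16466 in hippocampus and 16442, 13531 and 16070.0 in cortex. Of 12 microglial genes 1 passed, of 8 oligodendrocyte precursor genes 1, and of 17 endothelial and pericyte genes 0. Of 21 astrocyte genes, 2 were higher and 1 lower: Gfap, the astrocyte intermediate filament, had 3646, 3601 and 3658 in hippocampus, against 1905, 1771 and 1641 in cortex (1.04), and the water channel Aqp4 differed by 0.46. None of 19 cytosolic ribosomal protein genes and 1 of 25 respiratory chain genes passed. Each of these shares lies below the 19.4% of all genes.

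Interneuron genes were mixed. Of 24 tested, 5 were higher (20.8%) and 8 lower (33.3%) in hippocampus, both above the shares of all genes. The lowest was Tac1 (-2.41), which is also on the striatal list. Crh (-2.06), the stress peptide corticotropin-releasing hormone, Npy (-0.78), Vip (-0.71) and Pvalb (-0.60), the calcium buffer of fast-spiking cells, were lower, while Kit (0.97) was higher. Crh had 149, 247 and 215 in hippocampus, against 829, 974 and 707 in cortex.

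Receptors divided by subunit. The counts of these lists, too, stand against 9.26% higher and 10.2% lower over all genes. Of 11 GABA receptor genes, 3 were higher and 5 lower. Gabra5, the subunit of extrasynaptic receptors that carry tonic inhibition in pyramidal neurons, had 4798, 4545 and 4830.3 in hippocampus, against 1251, 1398 and 1446 in cortex (1.79 ± 0.09, adjusted p = 1.91e-12). Gabrd, the other subunit known for tonic inhibition, ran opposite, with 378, 466 and 411 in hippocampus, against 1468, 1499 and 1754 in cortex (-1.91 ± 0.10). The synaptic subunits Gabra2 (0.82) and Gabra3 (-0.83) also differed in opposite directions.

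Of 21 glutamate receptor genes, 6 were higher and 5 lower. Gria1, the AMPA receptor subunit added to synapses during long-term potentiation, had 6413, 5964 and 6424 in hippocampus, against 2795, 2514 and 2448 in cortex (1.28 ± 0.06). The metabotropic receptor Grm5 was higher by 0.47, and the kainate receptor subunit Grik3 was lower by -0.82. Of 20 receptors for serotonin, dopamine, noradrenaline and acetylcholine, 6 were higher and 5 lower. The lower genes included Drd1 and Drd2, which are also on the striatal list. The nicotinic receptor Chrna7 had 1797, 1659 and 1734 in hippocampus, against 718, 792 and 761 in cortex (1.19), and the serotonin receptors Htr4 (2.11), Htr5b (1.82) and Htr1a (0.98) were higher as well.

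Of 26 peptides and secreted factors tested, 11 were lower in hippocampus, 14 did not pass and 1, Nptx1 (0.70), was higher. Its relative Nptx2, a pentraxin that clusters AMPA receptors, went the other way, with 381, 254 and 350.3 in hippocampus, against 986, 1114 and 973 in cortex (-1.66). The lowest of the list was Penk (-2.66), which is also on the striatal list. Of 25 peptide and growth factor receptors, 8 were higher and 4 lower. Besides Npy2r, the fibroblast growth factor receptor Fgfr1 (1.26) and the somatostatin receptor Sstr4 (0.93) were higher, while the cholecystokinin receptor Cckbr had 327, 459 and 366 in hippocampus, against 1460.4, 1480.2 and 1707 in cortex (-2.02).

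Of 43 potassium channel genes, 16 were lower (37.2%) and 8 higher (18.6%) in hippocampus. The higher genes numbered 2 in running vehicle, 6 in VPA and 6 in running VPA offspring, and the lower genes 17, 19 and 18. Of all genes in these conditions, 9.79%, 11.9% and 10.9% were higher and 11.2%, 13.3% and 12.3% lower. The higher potassium channel genes thus lay below or close to the share of all genes there, and the lower ones well above it. Kcna5 (-2.03), Kcnj4 (-1.18), an inward rectifier, and the silent subunit Kcnv1 (-1.04) were among the lower. Of 30 sodium, calcium and related channel genes, 10 were higher and 8 lower. Scn3b, a sodium channel subunit, had 4696, 4544 and 4539 in hippocampus, against 2107, 2412 and 2233 in cortex (1.03), in contrast to its relative Scn4b. The cation channel Trpc4 (1.49) and the T-type calcium channel Cacna1h (1.02) were higher, and the AMPA receptor regulator Cacng3 (-1.04) was lower.

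Of 30 synaptic vesicle and release genes, 13 were lower, 4 higher and 13 did not pass, with a median of -0.12. The paired calcium sensors Doc2b and Doc2a ran opposite. Doc2b had 1897, 1710.0 and 1806 in hippocampus, against 681, 729 and 664 in cortex (1.38), and Doc2a had 232, 173 and 214 in hippocampus, against 744, 763 and 702 in cortex (-1.85). Stx1a, a SNARE protein of vesicle fusion, was lower by -1.06. Of 26 calcium-binding and calmodulin pathway genes, 11 were lower and 6 higher, and of 31 kinase and phosphatase signalling genes 14 were lower and 9 higher, with Rgs4 at 2549, 2603 and 2505 in hippocampus, against 6289, 6398 and 6514 in cortex (-1.33). The lowest of the kinase and phosphatase list was Ppp1r1b (-2.81), which is also on the striatal list.

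Adhesion and guidance molecules differed in large numbers. Of 41 cadherins and synaptic adhesion genes, 17 were lower and 14 higher. The protocadherin Pcdh20 had 3982, 3762 and 3619 in hippocampus, against 808, 794 and 799 in cortex (2.24), while Cdh22 (-1.37) and Cntn4 (-1.29) were lower. Of 38 axon guidance genes, 15 were higher and 9 lower. Sema3a, a secreted repellent, had 127, 184 and 144 in hippocampus, against 870.1, 805 and 808 in cortex (-2.46), whereas Nrp1, part of its receptor, had 3234, 3018 and 3562 in hippocampus, against 1097, 1360.5 and 1285 in cortex (1.39). Sema3e (1.33) was higher and its receptor Plxnd1 (-1.74) lower, so ligand and receptor differed in opposite directions in both pairs.

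Genes of hormone and morphogen pathways differed in both directions. Nr3c2, the mineralocorticoid receptor through which corticosterone acts in hippocampus, had 2056, 2244 and 2519 in hippocampus, against 504, 502 and 521 in cortex (2.15 ± 0.08). Hsd11b1, which regenerates active corticosterone, was higher by 0.83 and Fkbp5, a glucocorticoid target and receptor chaperone, by 0.80. Of 24 retinoid and steroid genes, 6 were higher and 10 lower, among them the retinoic acid receptor Rarb (-1.72). The lowest gene of this list, at -1.99, is also on the striatal list. Of 36 Wnt, Bmp and Shh genes, 7 were higher and 11 lower, with Rspo2 (0.73) higher and Rspo1 lower. Of 14 adult neurogenesis genes tested, 4 were higher, led by Hopx (0.89), and 4 were lower.

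Most immediate early genes, which neurons switch on within minutes of activity, were lower in hippocampus. Of 20 tested, 14 were lower and 2 higher, with a median of -0.84. Fosb, a Fos-family transcription factor, had 186, 213 and 231 in hippocampus, against 497, 668 and 771 in cortex (log2 difference -1.60 ± 0.15, adjusted p = 3.42e-08). Dusp1, a phosphatase of MAP kinases, had 930.0, 1373 and 1169.9 in hippocampus, against 2677, 3240.0 and 3148 in cortex (-1.40 ± 0.30, adjusted p = 0.00123). Fos, named after its values were seen, had 1041, 1861 and 1501 in hippocampus, against 4249.5, 4569 and 5154 in cortex (-1.70 ± 0.51, adjusted p = 0.0197). In each of the 3 genes all cortex arrays lay above all hippocampus arrays, as they did for 15.9% of all genes tested.

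Egr3 (-0.56) and Homer1 (-0.54) were lower by smaller amounts, while Nr4a3 (1.18) and Jun (0.63) were higher. Nr4a3, an orphan nuclear receptor, had 2478, 2297 and 2308 in hippocampus, against 769, 986 and 1475 in cortex. The count of lower genes was 7 without the first hippocampus replicate, 9 without the third cortex replicate and 9 with no filter on low signal. The list summed to 29811, 34416 and 32786 in hippocampus, against 46906, 50337 and 55793 in cortex.

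**Figure D3:**
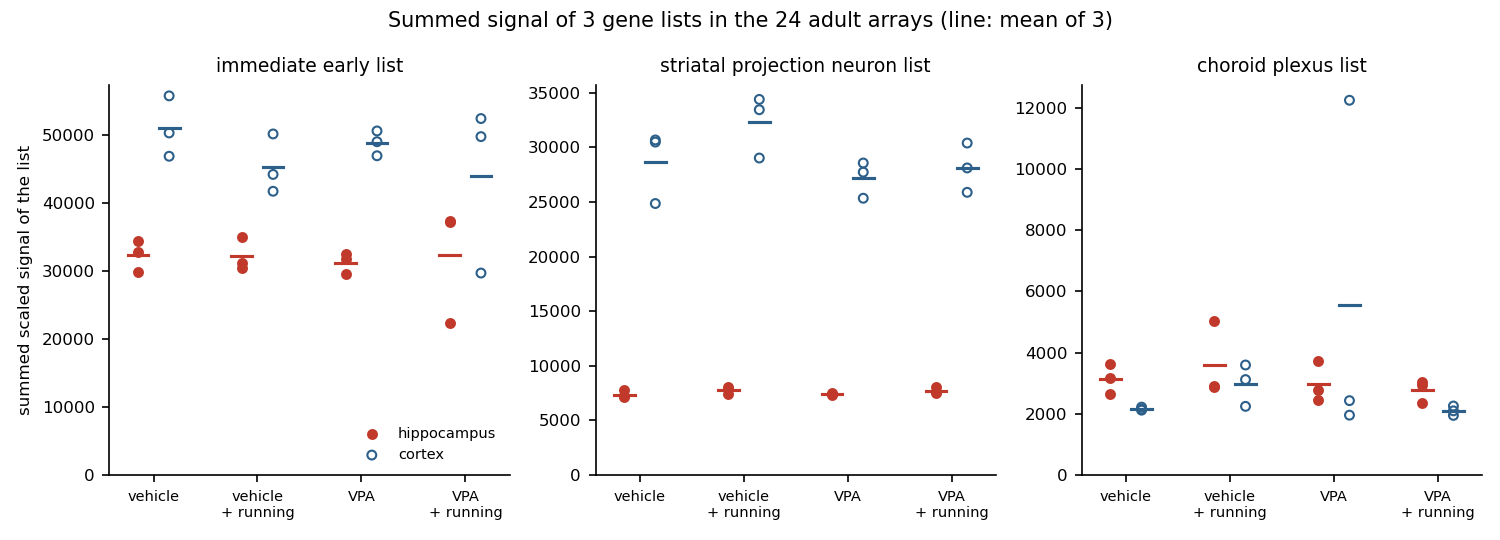
Summed scaled signal of the immediate early, striatal and choroid plexus lists in each of the 24 adult arrays, hippocampus filled and left of cortex, with a line at the mean of 3 arrays. The striatal sums are apart in all 4 conditions, the immediate early sums overlap in running VPA offspring, and 1 VPA cortex array is high for choroid plexus.

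The regional difference was then read in the other adult conditions. In running vehicle offspring 2794 genes passed (21%; 9.79% higher, 11.2% lower), in VPA offspring 3348 (25.2%; 11.9% higher, 13.3% lower) and in running VPA offspring 3088 (23.2%; 10.9% higher, 12.3% lower). Of the 2583 genes called in vehicle adults, 1940 were called in the same direction in running vehicle offspring (75.1% of the vehicle calls and 69.4% of the others), 1973 in VPA offspring (76.4% and 58.9%) and 1995 in running VPA offspring (77.2% and 64.6%). Calls in the opposite direction numbered 0, 1 and 3 in these conditions. In all 3, 1612 genes (62.4%) had the same call, 740 of them higher and 872 lower, and 272 (10.5%) had it in none. The arrays of the 4 conditions are separate, but the fit shares 1 estimate of spread; when each condition was fitted on its own 6 arrays, 1285 of 1795 vehicle calls (71.6%) were made in all 3 others.

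All 30 of the genes named for their size were called in the same direction in all 3 other conditions. C1ql2 differed by 4.86 in running vehicle, 5.09 in VPA and 5.41 in running VPA offspring, and Scn4b by -3.04, -3.39 and -3.01. Cd4 had the smallest difference of the lower genes, at -1.85 in running vehicle offspring. The striatal list had 12 lower genes of 13 in each of the 4 conditions. Dentate genes numbered 12, 12 and 13 higher of 19 in running vehicle, VPA and running VPA offspring, with 3 lower in each. Over all genes, 9.79%, 11.9% and 10.9% were higher and 11.2%, 13.3% and 12.3% lower in these 3 conditions.

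**Figure D4:**
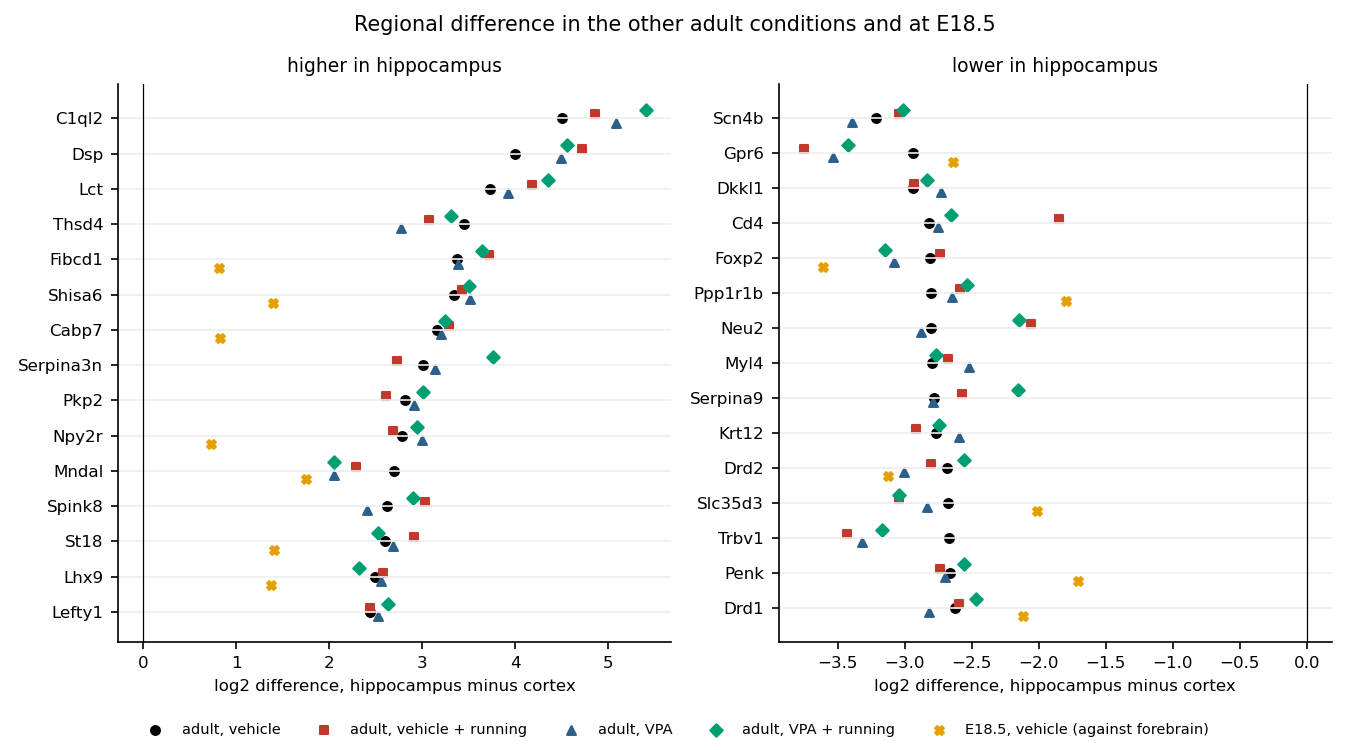
Log2 difference (hippocampus minus cortex) of the 30 named genes in the 4 adult conditions and, where tested, against forebrain in vehicle embryos at E18.5. The 4 adult values of each gene lie on the same side of 0, and the E18.5 points of Gpr6 and Slc35d3 are bounds, since their hippocampus arrays lay under the floor. The genes were chosen for large adult differences, so the distance of the E18.5 points from the adult ones is partly set by the choice.

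The immediate early list had negative medians in all 4 adult conditions, at -0.55 in running vehicle, -0.66 in VPA and -0.38 in running VPA offspring, against -0.84 in vehicle adults. Its lower genes numbered 6, 11 and 5 in the 3 other conditions, with 2 higher in each. In running VPA offspring it summed to 37206, 37386 and 22360 in hippocampus, against 52454, 49796 and 29719 in cortex, where the third replicate of both tissues was lowest and the ranges overlap. Each hippocampus sum lay below the cortex sum of the same replicate number, although the labels do not say that a number marks 1 animal. The change with running was -0.35 for Nr4a3 and 0.67 for Fosb, with a 95% interval of 0.22 to 1.12 for Fosb before adjustment and an adjusted p of 0.974.

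No gene passed the test of a change in the regional difference. For VPA, 0 genes passed in limma while 960 had an unadjusted p under 0.05, and the smallest adjusted p was 0.458. For running, 0 passed, 634 had an unadjusted p under 0.05 and the smallest adjusted p was 0.529. The VPA contrast was led by Map1a (0.49), a microtubule-associated protein, Kcnh1 (-0.35), Prps2 (-0.73), Lamp5 (-0.29), Eml6 (0.58) and Triobp (-0.63), and the running contrast by Rnd3 (-0.92), Pmpcb (-1.39), Trnp1 (0.42), Plbd2 (0.67), Mfsd12 (0.45) and Pex3 (-0.53), none of which passed. The intervals still allow changes: for Cabp7 the 95% interval of the change with VPA was -0.20 to 0.28, for Nr3c2 0.02 to 0.47 and for Fos -1.5 to 1.5. Without the first vehicle hippocampus replicate, Srrd passed for both contrasts, with changes of 2.04 for VPA and 1.98 for running, and without the first running vehicle cortex replicate Zbtb42 passed for running (2.56).

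At E18.5, hippocampus and forebrain already differed in 3513 of 11414 genes tested (30.8%), 1752 higher (15.3%) and 1761 lower (15.4%). Of the 2339 adult calls that could be tested at both ages, 778 had the same direction at E18.5 (33.3% of the adult calls and 22.8% of the E18.5 calls), 274 had the opposite direction (11.7%) and 1287 were not called. Among the named genes, the 7 tested of the 15 highest and the 7 tested of the 15 lowest in adult hippocampus had the same direction at E18.5. The other named genes were too low in signal at E18.5 to be tested. Gpr6, Slc35d3 and Drd2 passed that signal filter only through their forebrain arrays, so their direction at E18.5 was set by the filter. Striatal genes were lower in hippocampus at this age too, with 11 of 13 passing, and summed to 5009, 5338 and 5044 in hippocampus, against 12950, 12775 and 13325 in forebrain. The choroid plexus list varied widely among these embryos, from 2496 to 32583 in hippocampus and 19129 to 27353 in forebrain.

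The regional difference in adults (against cortex) minus that at E18.5 (against forebrain) passed the test for 2407 of 11020 genes (21.8%), 1261 upward (11.4%) and 1146 downward (10.4%). Age and dissection cannot be told apart in this contrast. The named genes were chosen for large adult differences, so a smaller value at E18.5 is partly set by the choice and is given as a description. Among those high in adult hippocampus, Fibcd1 differed by 3.38 in adults and 0.82 at E18.5, and Npy2r by 2.78 and 0.73. Among those low in adult hippocampus, Ppp1r1b differed by -2.81 in adults and -1.79 at E18.5, whereas Drd2 differed by -2.68 and -3.13, a change that did not pass (adjusted p = 0.183).

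The E18.5 counts that follow stand against 15.3% higher and 15.4% lower over all genes. Those of adult minus E18.5 stand against 11.4% upward and 10.4% downward. Markers of CA1 neurons were not higher as a group at E18.5, when 2 of 11 were higher and 6 lower than in forebrain. For 9 of the 11 the difference was more positive in adults by the test of adult minus E18.5. Gpr161 differed by 2.30 in adults and -0.18 at E18.5, and Pou3f1 by 1.37 and -0.49. Of 16 CA3 and CA2 genes, this contrast was upward for 9 and downward for 3. Developmental regulators differed early, with 13 of 21 higher and 1 lower at E18.5, among them Zbtb20 (1.39 at E18.5, 1.86 in adults) and Prox1 (1.5 and 2.26). Rspo1 had opposite directions, at -2.00 in adults and 1.34 at E18.5.

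Glial and vascular lists, close between the regions in adults, differed at E18.5. In hippocampus 7 of 9 microglial genes were higher and 0 lower, 10 of 18 astrocyte genes were higher and 2 lower, and 7 of 16 endothelial and pericyte genes were higher and 0 lower, against 15.3% and 15.4% of all genes. Of 19 cytosolic ribosomal protein genes, 10 were higher and 0 lower. In the contrast of adult minus E18.5, 7 of 9 microglial, 7 of 18 astrocyte and 5 of 16 endothelial and pericyte genes were downward, against 10.4% of all genes, and 0, 1 and 0 were upward. The part of these lists in the other differences between the ages was not tested.

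Immediate early genes were also read before birth. Of 15 tested at E18.5, 3 were higher and 2 lower in hippocampus, with a median of 0.03 (20% higher and 13.3% lower, near the 15.3% and 15.4% of all genes), and the whole list of 20 summed to 22958, 21507 and 20786 in hippocampus, against 13674, 15449 and 14015 in forebrain. Dusp1 differed by 0.03 at E18.5, and its adult minus E18.5 contrast was -1.43 (adjusted p = 0.00205).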

How the data were processed

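The deposited values are linear signal intensities of Affymetrix probe sets, 1 array per sample. GCOS is named in the submitters' processing notes; the sources used here give no other upstream step. The deposited intensities were multiplied by 1 factor per array to bring the 2% trimmed mean to 500, raised to a floor of 32 and converted to log2. Of 45101 probe sets, 34958 had 1 gene symbol, 932 several and 9211 none in the platform annotation. Each of 18194 genes was represented by its probe set with the highest mean signal over all arrays. Of 2524 other probe sets of called genes, 88.2% had the same direction and 6 were called in the opposite one. Genes with a scaled signal of at least 100 in 3 of the 6 vehicle arrays were tested with limma 3.58.1 (R 4.3.3), with 1 term per group over the 24 adult arrays, trended moderation and Benjamini-Hochberg adjustment. A model of vehicle and treated E18.5 arrays, and a joint model of both ages, were fitted in the same way. An exact permutation test of 3 arrays against 3 cannot give a p under 0.1.

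The members and gene lists were chosen with earlier results of these data known. The genes named are the 15 largest called differences in each direction with groups that do not overlap and a mean of at least 200 in the higher group, up to 6 members per list by adjusted p, any member of the region and neighbouring tissue lists, and up to 6 genes per interaction. Of 799 list genes, 726 matched and 680 were tested. Scripts were tested on simulated data. Alternatives covered scaling, floor, filter, moderation, arrays fitted, probe sets, replicate block and leaving out arrays.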

Additional observations from a re-analysis of the deposited data

Results flagged for a closer look

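The regional difference in adults (hippocampus minus cortex) differed from that at E18.5 (hippocampus minus forebrain) for 2407 genes by a direct test. Age and dissection cannot be told apart in these contrasts. Cpne6, a copine that binds calcium and membranes, had the largest upward change among the 6 genes with the smallest adjusted p (3.11 ± 0.20 (SE), adjusted p = 1.88e-13). It had 7939.7, 7120.1 and 7338 in adult hippocampus, against 2738, 2434 and 2538 in adult cortex, and 209.9, 193 and 142 in E18.5 hippocampus, against 700.1, 409.7 and 529.7 in forebrain. The direction was thus opposite at the 2 ages.

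Dusp14, a dual specificity phosphatase, changed by -2.64 and also turned, with 598, 684 and 660.4 in adult hippocampus, against 2173, 2043 and 2077 in adult cortex, and 610.2, 439 and 432 in E18.5 hippocampus, against 240.5, 288 and 237 in forebrain. Arpp19, a regulator of protein phosphatase 2A, changed by -1.90, with a difference of -1.97 in adults and -0.07 at E18.5. Pdp1, a phosphatase that activates pyruvate dehydrogenase, changed by -1.39, with -1.47 in adults and -0.08 at E18.5.

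Cabp7 changed by 2.34, with 3.17 in adults and 0.83 at E18.5. Tanc1, a postsynaptic scaffold, changed by 1.76, with 2.20 in adults and 0.44 at E18.5.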

How the results depend on the processing

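Directions and calls of the 30 genes named for size held in all 449 alternative values computed. With signals as deposited, calls numbered 1387 in vehicle adults (466 higher), 1474 in running vehicle, 1676 in VPA and 1953 in running VPA offspring, 851 at E18.5 and 532 for the change with age. The higher share of calls was then 33.6% in vehicle, 35.7% in running vehicle, 23.1% in running VPA offspring and 18.6% at E18.5, against 47.6%, 46.6%, 46.9% and 49.9% after scaling, and 72.6% against 52.4% for age. The median difference of all genes as deposited was -0.12 in running VPA offspring, -0.20 at E18.5 and 0.14 for age. With every probe set tested, which adds features, calls numbered 4271 in vehicle adults (1980 higher, 2291 lower), 4467, 5435 and 4958 in the other conditions and 5778 at E18.5.

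Leaving out 1 array at a time gave 2222 to 2392 calls in vehicle adults (1027 to 1137 higher, 1129 to 1269 lower), 2229 to 2678 in running vehicle, 2574 to 3061 in VPA and 2383 to 2753 in running VPA offspring, 0 to 1 for each change with VPA or running, 2542 to 3327 at E18.5 and 2029 to 2375 with age. The labels do not say whether a replicate number marks 1 animal, and the samples were not treated as paired. Each gene's group mean was subtracted, and the remaining deviations were correlated between same-numbered hippocampus and cortex arrays. These correlations ran from -0.15 to 0.31 over 12 pairs, 3 of them over 0.1. The highest, 0.31, was vehicle replicate 1, while vehicle replicates 2 and 3 had -0.15 and 0.02. Deviations of 5 hippocampus arrays correlated best with the cortex array of their own number, among them vehicle replicates 1 and 3. With the replicate block, calls numbered 2507 in vehicle adults, 2671, 3253 and 2955 in the other conditions, 0 for both interactions, 3474 at E18.5 and 2452 with age. Genes near the floor have only a bound on 1 side, and 3 arrays a group limit what can be detected.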
